A study of Rattus norvegicus with 38 samples.

Results

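The comparison described here is between rats that received the extract EF together with RD and rats that received EF together with PF, across all genes measured in their livers. It rests on 9 of the 38 libraries of the study, chosen by their labelled treatment: 4 of the group called EF_RD (replicates 1, 2, 3 and 4) and 5 of the group called EF_PF (replicates 1, 2, 3, 5 and 6). All animals were Sprague-Dawley rats, an outbred laboratory stock, and their livers were taken on day 28. Both groups were given EF at 2.5 g/kg into the stomach. The EF_PF rats also received PF at 2.5 g/kg and the EF_RD rats RD at 200 mg/kg, so the extracts were compared at unequal doses. The labels give the extracts only by these letters, and the sources used here do not give the rats' sex or age or the number of doses. None of these 9 rats was injected with lipopolysaccharide (LPS), the component of bacterial outer membranes that sets off inflammation. The other groups were controls (n = 5), rats given EF alone (n = 5), and rats injected with LPS without extract (n = 5) or with EF (n = 5). The same 2 combinations in LPS-injected rats are called LPS_EF_RD (n = 5) and LPS_EF_PF (n = 4). All 38 libraries entered a shared estimate of spread, so the p values draw on every group. Otherwise the other groups serve for reference. Neither PF nor RD was given without EF, so what is compared is RD against PF on an EF background. Per the design text the samples are biological replicates.

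The liver clears foreign chemicals with cytochrome P450 enzymes and conjugating enzymes, whose genes are switched on by sensor proteins. The aryl hydrocarbon receptor, AhR, is one of these sensors: it binds flat aromatic molecules, enters the nucleus and raises the transcription of Cyp1a1 and Cyp1a2, enzymes that oxidise such molecules. Nrf2 controls antioxidant and conjugating genes, the sterol-sensing SREBP2 pathway controls cholesterol synthesis, SREBP1c and ChREBP control fatty acid synthesis, and PPAR-alpha controls fatty acid oxidation.

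Cyp1a1 was the gene with the lowest p of all genes tested, and it was far lower with RD than with PF. Levels are in CPM, the read pairs of a gene divided by the library's scaled total. Cyp1a1 stood at 75.1, 55.7, 213, 178 and 111 CPM in EF_PF replicates 1, 2, 3, 5 and 6. It stood at 4.97, 2.76, 8.58 and 3.98 CPM in EF_RD replicates 1 to 4. The lowest EF_PF library was thus above the highest EF_RD library, with group means of 127 ± 67.2 CPM (SD, n = 5) and 5.07 ± 2.51 CPM (SD, n = 4). The log2 fold change of EF_RD against EF_PF was -4.64 ± 0.59 (standard error, SE), with an adjusted p of 7.44e-05 by edgeR's quasi-likelihood test. Rats given EF alone had 1.30 to 6.78 CPM and controls 0.33 to 1.58 CPM. Cyp1a1 was therefore high only in EF_PF among these 4 groups: its log2 fold change against EF was 5.45 ± 0.57 (adjusted p = 6.07e-07) in EF_PF and 0.81 ± 0.55 (adjusted p = 0.526) in EF_RD. Both of these comparisons share the EF libraries, and they called 24 (0.162%) and 107 (0.724%) of all genes. The 107 were counted with EF_RD 1, a library that carried skeletal muscle transcripts, as described further on. Muscle markers had a median log2 fold change against EF of 0.006 in EF_PF and 5.75 in EF_RD. These counts therefore do not measure RD against PF. The gene lies on chromosome 8 at 62472087 to 62478122 in the rat build rn6.

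Cyp1a2, its neighbour on chromosome 8 (62451360 to 62458244, rn6), is the AhR target that the liver already makes in quantity without an inducer. It stood at 2313, 2135, 3335, 2943 and 2194 CPM in EF_PF. In EF_RD it stood at 1090, 776, 1274 and 844 CPM, and the groups did not overlap. Cyp1a2 fell by 1.38 on the log2 scale in EF_RD against EF_PF (SE 0.27, adjusted p = 0.0104). EF alone gave 815 to 1841 CPM and controls 315 to 470 CPM, so EF_RD lay within the range of EF alone apart from its lowest library, and above the controls. Without EF_RD 1, a library that stands apart as described further on, the log2 fold change of Cyp1a2 was -1.42 with an adjusted p of 0.113.

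**Figure D1:**
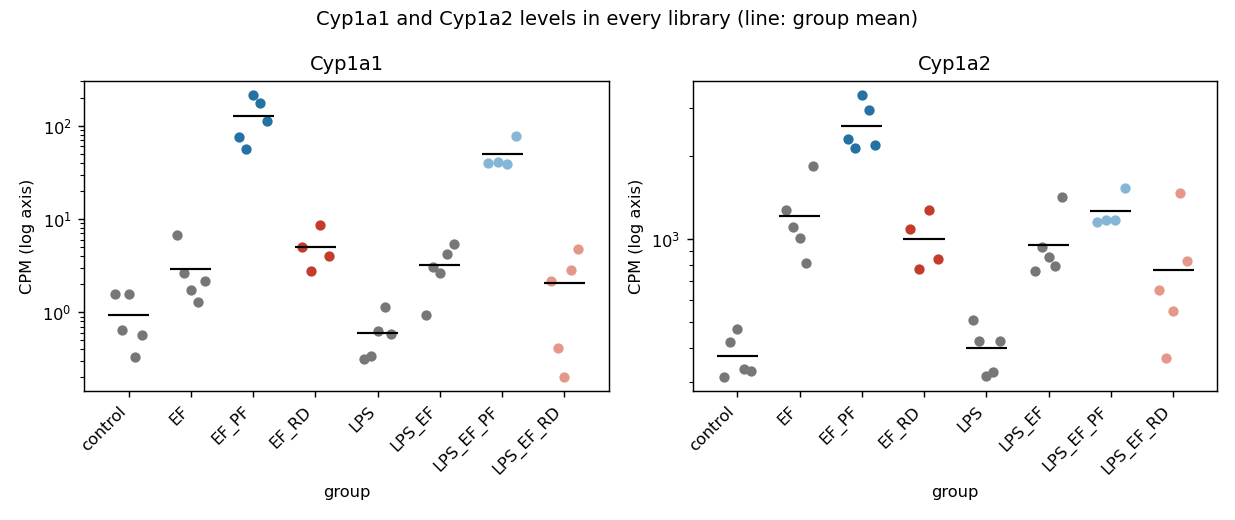
Levels of Cyp1a1 (left) and Cyp1a2 (right) in CPM on a log axis in each library of the 8 groups; each point is 1 library and the line is the group mean. For Cyp1a1 the EF_PF libraries (55.7 to 213 CPM) and the LPS_EF_PF libraries (39.1 to 78.1 CPM) sit above every library of the other groups.

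The bases just before a gene's start hold part of the sequence read by such sensors. The RefSeq promoter table of the rat build GRCr8 matched 28 of the 36 called genes described further on, and Cyp1a2 is shown because it moved together with Cyp1a1. Its 250 bases before the start, chr8:66978150-66978399 on the minus strand, are printed 5′ to 3′ with a TATAAA box in capitals.
Cyp1a2: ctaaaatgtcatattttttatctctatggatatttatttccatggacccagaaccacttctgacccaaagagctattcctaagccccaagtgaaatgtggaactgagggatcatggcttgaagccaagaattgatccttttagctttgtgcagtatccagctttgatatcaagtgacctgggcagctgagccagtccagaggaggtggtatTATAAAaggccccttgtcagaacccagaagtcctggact
The TATAAA begins 39 bases before the start. Of 33469 promoters of this length in the table, 12.9% hold TATAAA on either strand. GCGTG, the core of the sequence that AhR binds, was searched on both strands and occurs 0 times in this window, while 25.9% of the promoters hold it. The absence says only that these letters are not in this window.

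Cyp1a1 separated the combinations in LPS-injected rats as well. It stood at 39.5, 41.1, 39.1 and 78.1 CPM in LPS_EF_PF and at 2.15, 0.41, 0.20, 2.86 and 4.73 CPM in LPS_EF_RD. The groups again did not overlap, and the log2 fold change was -4.62 ± 0.57 (adjusted p = 3.35e-05). It was the 1 gene of 14786 called between these LPS-injected groups (0.00676%), and 758 genes (5.13%) had an unadjusted p under 0.05. These rats share no animal with those without LPS. The difference between both log2 fold changes was 0.02 ± 0.82 (adjusted p = 0.996), so no dependence on LPS was detectable at this precision. Cyp1a2 had a log2 fold change of -0.70 ± 0.26 between the LPS-injected groups and did not pass (adjusted p = 0.935). There, 1 LPS_EF_RD library reached 1466 CPM, above 3 of the 4 LPS_EF_PF libraries.

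By a rule that used only correlation over the 19 libraries without LPS, the genes whose log2 levels followed Cyp1a1 most closely were Cyp1a2 (Pearson's r = 0.886), Fam13a (r = 0.803) and Atp6v0a1 (r = 0.792). These libraries share the contrast between groups, so the values are a description. Fam13a ran from 25.7 to 41.6 CPM in EF_PF and from 16.3 to 35.4 CPM in EF_RD, with overlap. Atp6v0a1, a subunit of the proton pump of acidic vesicles, ran from 72.8 to 87.0 CPM in EF_PF and from 57.8 to 68.1 CPM in EF_RD. Neither passed, with adjusted p values of 0.433 and 0.153.

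Apart from Cyp1a1 and Cyp1a2, no AhR target was called. Of 10 listed genes, these 2 included, 8 were abundant enough to be tested, and the 2 were called lower. The background is 0.115% of tested genes called lower, and the median log2 fold change of all 8 was -0.63 against 0.01 over all tested genes. The members named here beyond the called ones were chosen after their values were seen. The receptor gene Ahr ran from 61.2 to 97.6 CPM in EF_PF and stood at 44.5, 27.8, 61.3 and 28.2 CPM in EF_RD, a log2 fold change of -0.97 ± 0.27 that did not pass (adjusted p = 0.0721). Ugt1a6, a glucuronosyl transferase, had -0.90 ± 0.28 (adjusted p = 0.127), with 22.9 to 36.5 CPM in EF_PF and 10.9 to 19.8 CPM in EF_RD. The quinone reductase Nqo1 (-0.36), the receptor's partner Arnt (0.05) and the feedback enzyme Tiparp (0.01) did not pass. Cyp1b1 had 1.73 ± 0.70 (adjusted p = 0.272), and this value was carried by EF_RD 1 at 4.63 CPM: without that library it was 0.61.

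Across the whole table, 105 of 14786 tested genes were called at an adjusted p under 0.05 (0.71%). Of these, 88 were higher (0.595%) and 17 lower (0.115%) in EF_RD, and 79 of the higher but only 3 of the lower changed at least 2-fold. At an unadjusted p under 0.05 there were 1881 genes (12.7%). Most of the genes called higher depended on 1 library. When EF_RD 1 was left out, the fold of 69 of the 105 moved by more than 1.5 times, and all 69 were genes higher in EF_RD. In all 69 EF_RD 1 was the highest EF_RD library, and it held a median of 93.9% of their summed EF_RD level. The other 36 genes, 19 higher and 17 lower, kept their sign and an unadjusted p under 0.05 without it. After adjustment without EF_RD 1, only Cyp1a1 was called (1 of 14933, 0.0067%), with a log2 fold change of -4.63 and an adjusted p of 0.00132. The adjusted p of the other 35 then ran from 0.113 to 0.61, and 956 genes (6.4%) had an unadjusted p under 0.05.

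**Figure D2:**
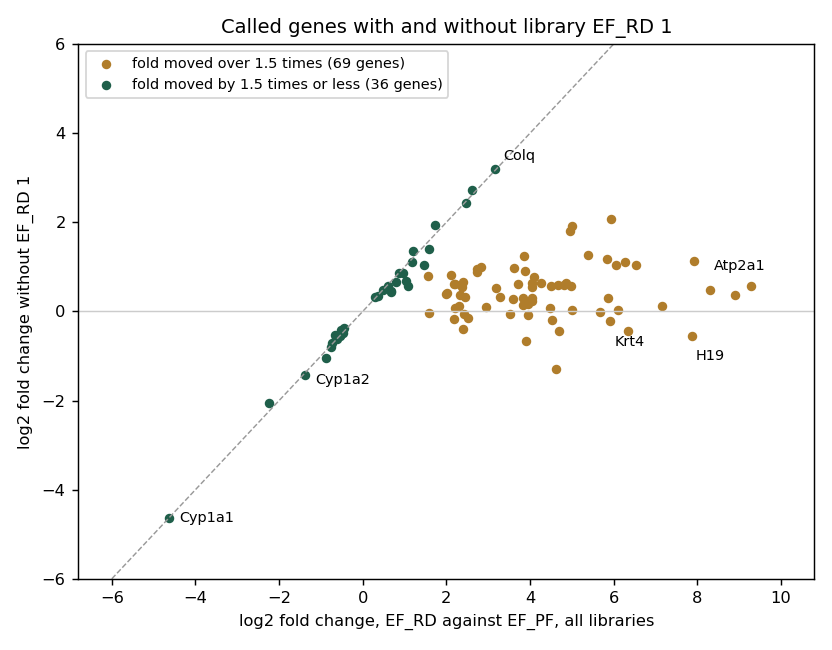
Log2 fold change of EF_RD against EF_PF for the 105 called genes, with all 9 libraries (horizontal axis) and without EF_RD 1 (vertical axis); the dashed line marks equal values. The 36 green points lie near the line, with Cyp1a1 at the lower left, while the 69 brown points, such as Atp2a1, H19 and Krt4, drop towards 0 without that library.

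EF_RD 1 carried transcripts of tissues other than liver. Skeletal muscle markers summed to 6002 CPM in it, against 10.2 to 27.0 CPM in the other 18 libraries without LPS. In the LPS group without extract the highest sum was 641 CPM and the median 18.5 CPM. That group also entered the shared estimate of spread. Acta1, the actin of skeletal muscle, stood at 1614 CPM in EF_RD 1 and at 0.19 CPM or less in the other 8 libraries. Ckm, the muscle creatine kinase, stood at 528 CPM in EF_RD 1 and at 0 in those 8. Of 31 muscle markers 14 were tested and 11 were called higher, against 0.595% of all genes, with a median log2 fold change of 5.67, or 0.08 without EF_RD 1. The largest such changes among called genes that met the naming rule were in Atp2a1, the calcium pump of fast muscle (log2 fold change 9.28, or 0.58 without EF_RD 1), the troponin gene Tnnt3 (8.90, 0.38), the filament genes Neb (8.30, 0.48) and Ttn (7.91, 1.14), and the imprinted RNA H19 (7.86, -0.54).

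Markers of squamous epithelium, adipose tissue and pancreas were high in the same library. Keratins of stratified epithelium were added to the lists after their values were seen: Krt4 stood at 123 CPM and Krt13 at 118 CPM in EF_RD 1, while Krt13 was at 0 in the other 8 libraries. The squamous list summed to 306 CPM in EF_RD 1 and to at most 0.95 CPM in the other 18 libraries without LPS. Adipose markers summed to 543 CPM against 76.8 to 119 CPM, with Plin4 at 41.2 CPM against 0.53 CPM or less in the other 8. Exocrine pancreas markers summed to 132 CPM against 13.4 to 22.2 CPM in the other 8, and 1 control library reached 3654 CPM. The highest sum in the LPS group without extract was 2075 CPM. The stress protein gene Cryab, which muscle expresses strongly, was called higher at 2.94 ± 0.66 (adjusted p = 0.0284). It stood at 55.3 CPM in EF_RD 1 and at 1.29 to 2.64 CPM in the other EF_RD libraries. Eno3, the muscle enolase, and Des, a filament protein of muscle, followed, with log2 fold changes of 4.53 and 4.05 that became -0.19 and 0.30 without EF_RD 1.

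**Figure D3:**
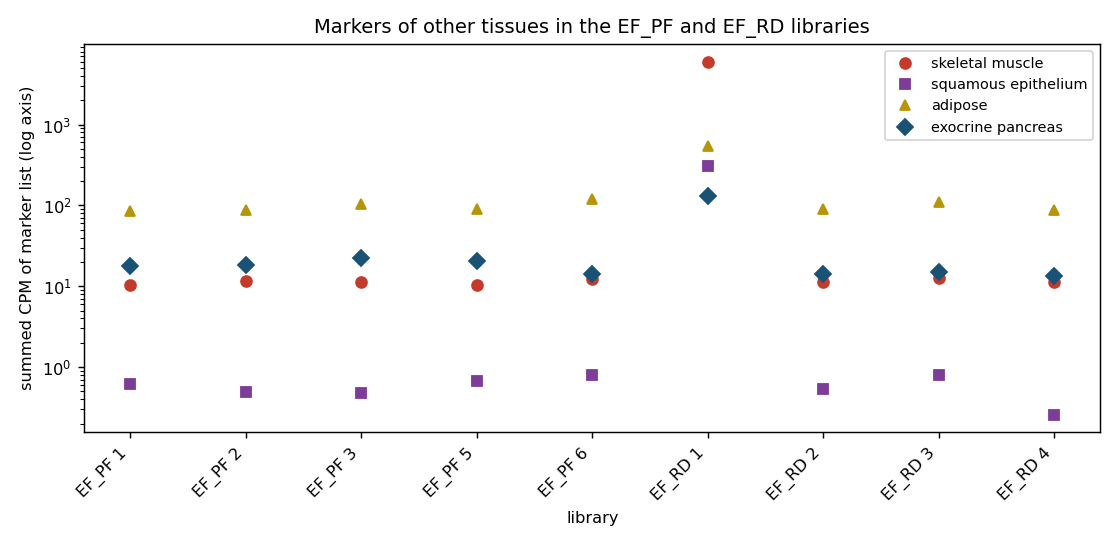
Summed CPM of marker lists of skeletal muscle, squamous epithelium, adipose tissue and exocrine pancreas on a log axis in the 9 libraries. EF_RD 1 is above all others for every list, at 6002, 306, 543 and 132 CPM.

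Another feature of the EF_RD group concerned its replicates. EF_RD 2 and EF_RD 4 were more alike than any other pair: the chi-square of their counts per degree of freedom was 5.69, while the next lowest of all 703 pairs of libraries was 23.9. Sampling noise alone would give about 1, so they differed by more than that. Whether both came from 1 animal, which would leave 3 rats in EF_RD, was not tested; they were kept apart as the labels have them. When they were summed into 1, Cyp1a1 had a log2 fold change of -4.51 (adjusted p = 0.00166), 203 genes were called, and 29 of the 36 genes were among them. When EF_RD 1 was left out as well, 0 genes were called by edgeR, 527 had an unadjusted p under 0.05, and Cyp1a1 had -4.43 with an adjusted p of 0.0733. Depth was similar, with 22287849 to 25422925 read pairs counted per EF_PF library and 22676765 to 26790887 per EF_RD library. Hepatocyte markers summed to 196772 to 228402 CPM in EF_PF and to 179158 to 199840 CPM in EF_RD. The labels name hepatocytes, and endothelial and other liver cell markers were present in every library.

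The 36 genes whose fold moved by 1.5 times or less without EF_RD 1 were set apart after the values were seen. That limit does not make them free of EF_RD 1: Ablim1 and Hdac4, for example, were far higher in it than in the other EF_RD libraries. Only Cyp1a1 was still called without it. The groups did not overlap in 33 of the 36 genes (5.19% among all tested genes). These genes were picked on the same libraries, so this count is a description only. In bulk liver, fewer cells of a type and less RNA per cell cannot be told apart.

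Among the 17 lower genes, Tkt, transketolase of the pentose phosphate pathway, stood at 223, 156, 222, 204 and 187 CPM in EF_PF and at 109, 130, 142 and 127 CPM in EF_RD. Every EF_RD library was below every EF_PF library, and Tkt fell by 0.64 on the log2 scale (SE 0.12, adjusted p = 0.00984). Tk1, thymidine kinase, stood at 9.22 to 11.6 CPM in EF_PF and 5.71 to 6.65 CPM in EF_RD (log2 fold change -0.74 ± 0.18, adjusted p = 0.0363). Pole, the catalytic subunit of DNA polymerase epsilon, had -0.48, and the microsomal glutathione transferase Mgst2 had -0.61. Pir, an iron-binding nuclear protein whose gene is a known Nrf2 target, had -0.88 ± 0.21 (adjusted p = 0.0356). Its EF_RD levels were uneven, at 15.7, 7.62, 15.9 and 7.73 CPM, with the low values in the 2 libraries that were so alike. With those summed, Pir had -0.73 and an adjusted p of 0.082.

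Scap, the protein that carries SREBP factors from the endoplasmic reticulum to the Golgi, stood at 86.3 to 111 CPM in EF_PF and 56.6 to 75.9 CPM in EF_RD. It fell by 0.45 on the log2 scale (SE 0.10, adjusted p = 0.0284). Pglyrp2, a liver enzyme that cleaves bacterial peptidoglycan, had -0.56, and Trpm2, a calcium channel opened by ADP-ribose, had -0.75. Znf740, a zinc finger gene, had the second lowest p of the 36, with 59.2 to 67.5 CPM in EF_PF and 41.0 to 49.3 CPM in EF_RD (-0.52 ± 0.09, adjusted p = 0.00984). The remaining lower genes were LOC102553356 (-2.24), Tomm40l (-0.68), RGD1309676 (-0.53), Zfyve1 (-0.52), Lcmt1 (-0.51) and St5 (-0.46).

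Among the 19 higher genes, 3 of low level are given first. Macrod2, an enzyme that removes ADP-ribose from proteins, stood at 0.21, 0.13, 0.05, 0.05 and 0.33 CPM in EF_PF and at 0.91, 1.02, 0.92 and 0.59 CPM in EF_RD. Its log2 fold change was 2.46 ± 0.47 (adjusted p = 0.00984). Rats given EF alone had 0.52 to 1.41 CPM, and against them the log2 fold change was -2.50 in EF_PF and -0.04 in EF_RD. Colq, the collagen tail of acetylcholinesterase, had 0.12 to 1.30 CPM in EF_PF and 4.63, 6.02, 1.58 and 7.29 CPM in EF_RD (3.16 ± 0.75, adjusted p = 0.035). EF alone covered 0.28 to 7.95 CPM for Colq, so EF_RD lay within its range. Dact1, a modulator of Wnt signalling, had 2.61 ± 0.59 (adjusted p = 0.0288), with 0.31 to 0.59 CPM in EF_PF and 1.01 to 4.28 CPM in EF_RD. These are low levels, so counting error is a large part of each library's value.

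Cyp26b1, an enzyme that breaks down retinoic acid, rose as well. It stood at 0.74, 1.14, 1.04, 1.75 and 0.42 CPM in EF_PF and at 1.82, 4.23, 2.33 and 5.16 CPM in EF_RD, against 0.16 to 0.59 CPM with EF alone. The log2 fold change between the combinations was 1.73 ± 0.41 (adjusted p = 0.035). The highest values were in EF_RD 2 and EF_RD 4, the libraries that were so alike. Eci1, an isomerase needed to oxidise unsaturated fatty acids, stood at 51.6 to 80.3 CPM in EF_PF and at 97.9, 184, 149 and 198 CPM in EF_RD. It was called at the edge of the threshold (1.19 ± 0.30, adjusted p = 0.0495). Irs2, an adaptor of the insulin receptor, had 0.97 ± 0.24 (adjusted p = 0.0387), with 1 EF_RD library at 16.5 CPM, just under the highest EF_PF library at 16.7 CPM.

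Of the remaining higher genes, Myd88, the adaptor of Toll-like receptors, had 0.66 ± 0.16 (adjusted p = 0.0432), with 26.6 to 32.2 CPM in EF_PF and 33.8 to 66.0 CPM in EF_RD, the highest in EF_RD 1. Hdac4, a histone deacetylase, had 0.68, or 0.46 without EF_RD 1. Pik3ap1, an adaptor of phosphoinositide 3-kinase, had 0.48 with 59.0 to 70.0 CPM in EF_PF and 87.0 to 92.7 CPM in EF_RD. The proteasome activator Psme3 (0.29) and the phenylalanyl-tRNA synthetase subunit Farsb (0.36) changed least. The others were Aig1 (1.57), Gnao1 (1.47), Pcdhb19 (1.18), Ablim1 (1.07, 0.56 without EF_RD 1), Ank3 (1.03), Qtrt2 (0.88), RGD1308706 (0.79) and Gpcpd1 (0.61).

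Lipid synthesis genes lay lower in EF_RD as a group, though no single enzyme passed. All 21 listed enzymes of cholesterol synthesis were tested and 0 were called by edgeR. Of these, 20 had a log2 fold change below 0, with a median of -0.54, or -0.57 without EF_RD 1. At an unadjusted p under 0.05, 10 of 21 were lower, against 4.51% of all tested genes. The summed level of the list was 5792, 5881, 5728, 5216 and 4631 CPM in EF_PF and 3806, 3992, 3412 and 3935 CPM in EF_RD, with no overlap. EF alone gave 4524 to 9234 CPM and controls 2470 to 3044 CPM, so EF_RD lay between controls and EF. Pmvk, phosphomevalonate kinase, had the lowest p of the list (-0.69 ± 0.20, adjusted p = 0.0872). Fdps and Dhcr7, an early and a late enzyme of the route, both had -0.76. Insig1, which holds SREBP back when sterols are plentiful, is from the separate list of SREBP2 regulators and LDL uptake. It had the lowest value of that list at -0.83, while the list's median was -0.08, or -0.009 without EF_RD 1. None of these genes was called. Apart from Pmvk, they were chosen after their values were seen.

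De novo lipogenesis showed the same direction. All 22 tested members had a log2 fold change below 0 (20 without EF_RD 1), with a median of -0.62, and 0 were called by edgeR. At an unadjusted p under 0.05, 9 were lower, against 4.51% of all genes. The list summed to 4656, 4042, 7424, 4187 and 4440 CPM in EF_PF and to 3629, 2984, 3293 and 2687 CPM in EF_RD. Every EF_RD library lay below every EF_PF library and below the EF libraries, which ran from 4401 to 5961 CPM. Lpin1, a phosphatidate phosphatase, had the lowest p (-1.39 ± 0.40, adjusted p = 0.0817), but EF_RD 1 at 198 CPM overlapped EF_PF at 181 to 547 CPM. Pnpla3, a lipid droplet protein and SREBP1c target, had -2.01 ± 0.75, and Acly, which makes cytosolic acetyl-CoA, had -0.91 ± 0.33, with adjusted p values of 0.215 and 0.204. Acacb, which makes the malonyl-CoA that restrains fatty acid oxidation, had -0.65. These last 3 were chosen after their values were seen.

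Fatty acid oxidation genes lay the other way. Of 33 tested members of the PPAR-alpha list, 26 had a log2 fold change above 0, with a median of 0.32 with and without EF_RD 1. Only Eci1 was called, against 0.595% of all genes called higher, and 13 had an unadjusted p under 0.05 in the higher direction, against 8.21%. Without EF_RD 1 this number was 17, against 3.17% of all genes. The rat Cyp4a genes, omega-hydroxylases of fatty acids and classical PPAR-alpha targets, did not overlap between the groups. Cyp4a2 stood at 191, 238, 268, 259 and 330 CPM in EF_PF and at 891, 805, 841 and 1117 CPM in EF_RD (1.83 ± 0.51, adjusted p = 0.0773). Cyp4a3 had 1.07 and Cyp4a1 had 0.97, neither called. These genes are close copies, and read pairs shared between them may not have been counted. Hadhb, of the mitochondrial trifunctional protein, had 0.35, Cpt1a, the gate for fatty acids into mitochondria, had 0.61, and Pdk4, which spares glucose by blocking pyruvate dehydrogenase, had 1.01. Ppara itself lay lower, at -0.67 ± 0.28 (adjusted p = 0.294). All but Eci1 and Cyp4a2 were chosen after their values were seen. The summed level of the list overlapped: 6961 to 8880 CPM in EF_PF and 8406 to 10991 CPM in EF_RD, with EF_RD 1 the lowest of its group.

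**Figure D4:**
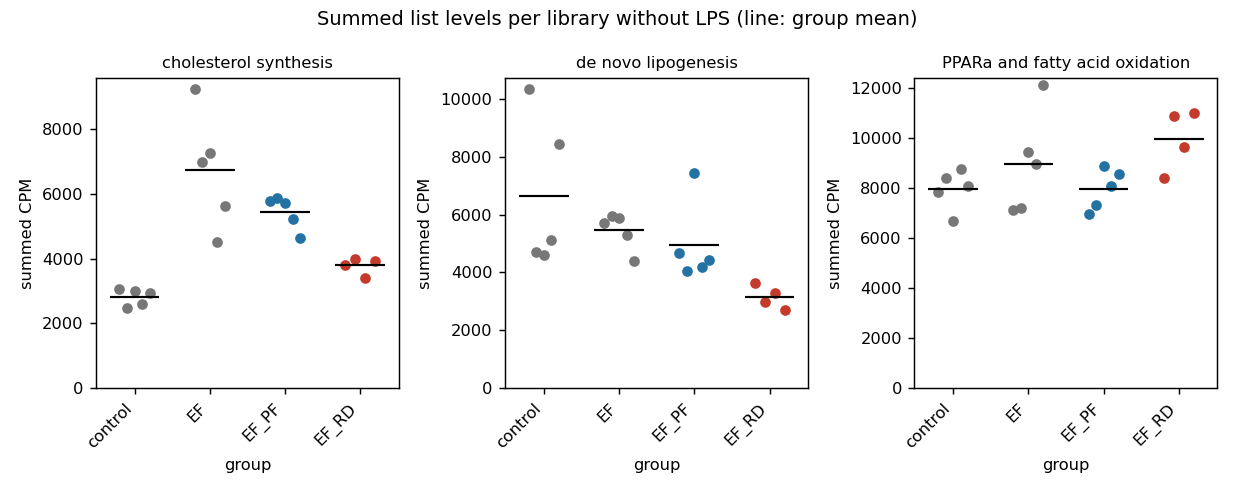
Summed CPM of 3 lipid gene lists in each library of the 4 groups without LPS; the line is the group mean and the axes start at 0. EF_RD is below every EF_PF library for cholesterol synthesis (3412 to 3992 against 4631 to 5881 CPM) and de novo lipogenesis (2687 to 3629 against 4042 to 7424 CPM), and overlaps EF_PF for fatty acid oxidation.

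Beside EF alone, with whose libraries both combinations are compared, the cholesterol list had a median log2 fold change of -0.77 in EF_RD and -0.24 in EF_PF. For lipogenesis the medians were -0.71 and 0.03, and for fatty acid oxidation 0.06 and -0.19. Between the LPS-injected groups the signs differed, with medians of 0.30 for cholesterol synthesis, 0.42 for lipogenesis and -0.02 for fatty acid oxidation. No member of these 3 lists was called in the test of the difference between the LPS-injected and other rats.

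Antioxidant genes also lay lower in EF_RD. Of 20 tested members of the Nrf2 list, 18 had a log2 fold change below 0, with a median of -0.35 with and -0.34 without EF_RD 1. Tkt was the 1 member called, against 0.115% of all genes called lower. In the lower direction 13 had an unadjusted p under 0.05, against 4.51% of all genes, and 10 without EF_RD 1, against 3.23%. The summed level was 5325 to 7095 CPM in EF_PF and 4232 to 4918 CPM in EF_RD. Pgd, the second dehydrogenase of the pentose phosphate pathway, had -0.52 ± 0.14 (adjusted p = 0.0665) and Gsr, glutathione reductase, -0.43 ± 0.12 (adjusted p = 0.0704). Ephx1, microsomal epoxide hydrolase, had -0.94 ± 0.26 (adjusted p = 0.0733). The heme-degrading enzyme Hmox1 had 1.18, with 222 CPM in EF_RD 1 and 23.3 to 31.8 CPM in the other EF_RD libraries, and -0.24 without EF_RD 1. These 4 were chosen after their values were seen. Among 27 glutathione, glucuronosyl and sulfo transferases the median was -0.30 and 0 were called by edgeR, with 7 lower at an unadjusted p under 0.05, against 4.51% of all genes. Gsta2 had the lowest p of that list at -1.23 ± 0.40 (adjusted p = 0.138), with 53.9 to 167 CPM in EF_PF and 38.6 to 42.6 CPM in EF_RD. Gsta5, just past the threshold, had -1.06 (adjusted p = 0.0573). The Gsta genes are close copies and their counts may be shared.

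Proliferation genes were at low levels and mostly below 0. The list summed to 121 to 183 CPM in EF_PF and 109 to 147 CPM in EF_RD, with overlap. With EF alone it summed to 121 to 152 CPM. Of 38 cell cycle genes, 34 had a log2 fold change below 0, with a median of -0.36, or -0.34 without EF_RD 1. Tk1 was called, and 11 had an unadjusted p under 0.05 in the lower direction, against 4.51% of all genes, or 3 without EF_RD 1, against 3.23% of all genes then. Chosen after their values were seen, cyclin A2 (Ccna2) had -1.42 and the proliferation marker Mki67 -0.94, the latter with 2.93 to 4.98 CPM in EF_PF and 1.6 to 2.50 CPM in EF_RD.

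**Figure D5:**
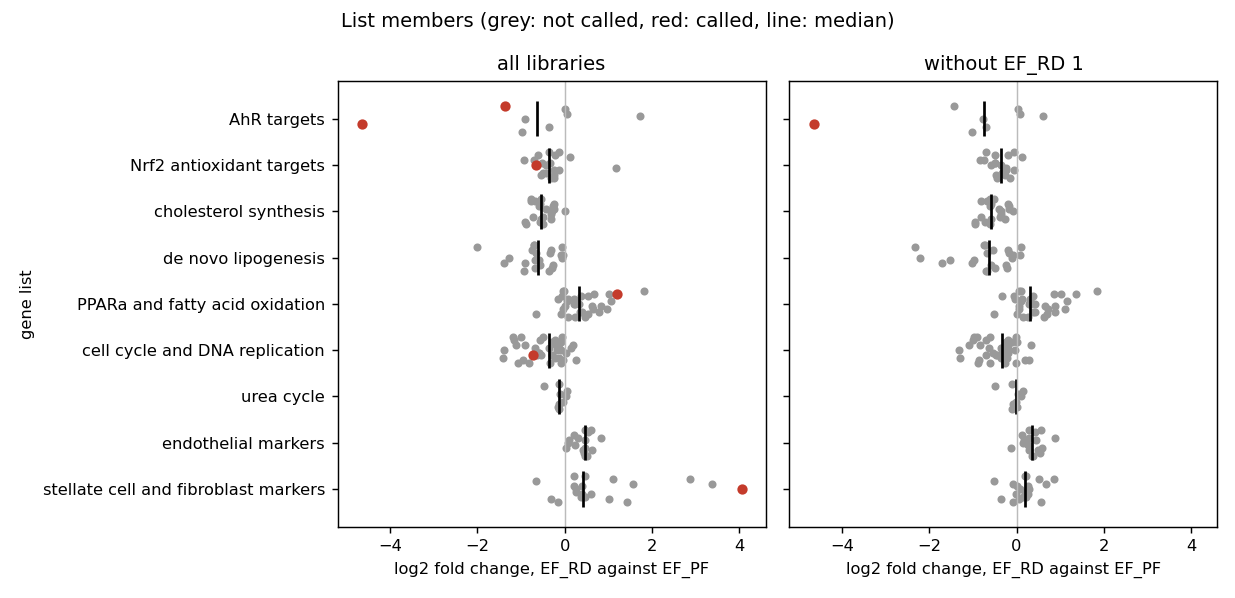
Log2 fold change of EF_RD against EF_PF for each tested member of 9 gene lists, with all libraries (left) and without EF_RD 1 (right); the black line is the list median and red points are called genes. Cholesterol synthesis (median -0.54), lipogenesis (-0.62) and Nrf2 targets (-0.35) sit left of 0, fatty acid oxidation (0.32) right of it, and stellate cell markers narrow when EF_RD 1 is left out.

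Liver cell type markers were compared in the same way. All 17 endothelial markers had a log2 fold change above 0, with a median of 0.47 (0.36 without EF_RD 1), and 0 were called by edgeR. At an unadjusted p under 0.05, 5 were higher, against 8.21% of all genes, and 1 without EF_RD 1, against 3.17%. The list summed to 392 to 590 CPM in EF_PF and 586 to 654 CPM in EF_RD, with 1 EF_PF library inside the EF_RD range. Stab1, a scavenger receptor of sinusoidal endothelium, had 0.84 ± 0.30 (adjusted p = 0.2), with 8.94 to 19.7 CPM in EF_PF and 22.5 to 27.0 CPM in EF_RD. Stellate cell and fibroblast markers had a median of 0.43, and 0.19 without EF_RD 1, and Des was the 1 of 20 called. Kupffer cell (0.17), lymphocyte (0.07) and cholangiocyte (0.01) markers had 0 called by edgeR and 0 at an unadjusted p under 0.05. Neutrophil and monocyte markers had 0.41, or 0.15 without EF_RD 1, and erythroid markers -0.70. Hepatocyte markers had -0.10. The part of endothelial and hepatocyte RNA in the values of the lipid lists was not tested.

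The other lists moved little, with 0 members called by edgeR unless stated. Medians were -0.08 for SREBP2 regulators and LDL uptake (Scap called), -0.13 for bile acid synthesis and transport, -0.25 for CAR and PXR targets (-0.09 without EF_RD 1) and 0.04 for ketone body metabolism. They were -0.07 for apolipoproteins, -0.03 for gluconeogenesis and amino acid catabolism, -0.24 for glycolysis and glycogen, and -0.13 for the urea cycle. The circadian clock had -0.09, growth hormone and IGF genes 0.11, male-biased genes -0.21 and female-biased genes 0.23. Acute phase proteins had 0.24 with and 0.00 without EF_RD 1, interferon-stimulated genes 0.09 and ER chaperones 0.01. The heat shock list had 0.19 with 18 of 19 members above 0, or 0.11 with 15 above 0 without EF_RD 1. At an unadjusted p under 0.05, 8 members were higher, against 8.21% of all genes, and 3 without EF_RD 1, against 3.17%. Cryab, high in EF_RD 1, was called. P53 targets had -0.07, metal, iron and heme genes -0.03, retinoid genes -0.19 (Cyp26b1 called), complement and coagulation genes -0.05 and mitochondrially encoded genes 0.00. At the lowest p of their lists, and not called, were Hsd3b7 of bile acid synthesis (-0.54), Ppargc1a, a coactivator of gluconeogenesis (-0.89), and Pdia6, a disulfide isomerase of the endoplasmic reticulum (-0.42). Socs3, a feedback inhibitor of cytokine signalling, had 2.07 with 91.6 CPM in EF_RD 1 and 4.80 to 10.5 CPM in the other EF_RD libraries.

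Just past the threshold stood genes that a naming rule added as the lowest p values not called. On the lower side they were Setd3 (-0.31, adjusted p = 0.0507), Nme1 (-0.58), Tmem231 (-0.50), Yipf1 (-0.44), Gskip (-0.67) and Blvrb (-0.42), a reductase of the heme breakdown product biliverdin. On the higher side were Iqsec2 (0.51, adjusted p = 0.051, or 0.39 without EF_RD 1), Glis2 (0.90, or 0.70), Sparcl1 (1.24, or 0.78), Timp3 (1.14, or 0.66), Matn2 (2.78, or 0.28), Hmcn2 (2.82, or 0.12) and Mef2c (1.74, or 0.14). All 7 had their highest level in EF_RD 1.

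Whether the difference between RD and PF depended on LPS was tested as an interaction, and 1 of 14786 genes was called (0.00676%). That gene was Tkt, with an interaction of 1.0 ± 0.17 on the log2 scale (adjusted p = 0.0287). In the LPS-injected rats Tkt stood at 118, 123, 122 and 110 CPM in LPS_EF_PF and at 128, 151, 164, 162 and 150 CPM in LPS_EF_RD. There every LPS_EF_RD library was above every LPS_EF_PF library, the reverse of the order without LPS, although that difference alone did not pass (0.35 ± 0.12, adjusted p = 0.926). Without EF_RD 1 the interaction of Tkt was 0.93 with an adjusted p of 0.082, and leaving out EF_PF replicates 1, 3 or 5 gave adjusted p values of 0.0759, 0.0769 and 0.0581. An unadjusted p under 0.05 was found for 1529 genes (10.3%).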

How the data were processed

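RNA of 38 rat livers was sequenced, and 9 libraries form the comparison. The deposited table holds counts of read pairs per gene name, which the authors made with featureCounts 2.0.6 on a RefSeq annotation of rn6, with no strand setting, per the file headers. STAR, RSEM and a second build, mRatBN7.2, appear in the submitters' processing notes. Reads of overlapping antisense genes cannot be told apart. A deposited TPM table was not used. No molecular identifiers are described.

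Counts were tested with edgeR 4.0.16 (glmQLFit, glmQLFTest) under R 4.3.3. The filterByExpr function (minimum count 10, minimum total 15) kept 14786 of 31038 genes. TMM scaling, a trimmed mean of log ratios, was applied. A model with 1 mean for each of 8 groups was fitted to all 38 libraries, and p values were two-sided, adjusted by the Benjamini-Hochberg method and called under 0.05. CPM are counts over the TMM-scaled library size. The procedure was run on simulated data, which held no library with transcripts of other tissues and no pair of very similar libraries. That run therefore does not cover these features of EF_RD. Alternatives used DESeq2 1.42.0, limma voom 3.58.1, other scalings, filters and subsets of libraries. Lists are described by counts and medians, with no set test.

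The comparison, the gene lists and the rules were chosen with earlier results of these data known. Named were genes called with and without EF_RD 1, filled up to 8 per direction with uncalled genes of lowest p, up to 4 called members of each list or its lowest p, the 5 largest changes called only with EF_RD 1, the 4 highest muscle markers, called interactions and the 3 nearest patterns; 1 gene so picked is not reported here. The 36 genes, the squamous list and further list members were added after their values were seen. Each count column matched 1 sample.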

Additional observations from a re-analysis of the deposited data

Results flagged for a closer look

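A library was picked out where its gap to the nearest other library of its group took up most of the group's range (Dixon's 95% value). Chance picks out about 1 in 20 groups of values that were not chosen beforehand. Over 289 groups of values there were 53 such cases, and 41 of them were in EF_RD 1. Part of these genes and the squamous list were included because EF_RD 1 stood out in them. The count for EF_RD 1 therefore cannot be set against that rate.

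In EF_RD 1 the muscle genes Acta1 (1614 CPM), Atp2a1 (593), Ckm (528), Tnnt3 (351), Ttn (219), Eno3 (177), Des (152), Neb (130) and Cryab (55.3) and the muscle list (6002 CPM) were far above the other EF_RD libraries. So were H19 (511 CPM), Krt4 (123), Krt13 (118) and the squamous list (306 CPM), Plin4 (41.2 CPM) and the adipose list (543 CPM), and Amy2a3 (22.7 CPM) and the pancreas list (132 CPM). Also high in EF_RD 1 were Steap4 at 249 CPM, Hmox1 at 222, Acly at 165, Socs3 at 91.6, Timp3 at 57.6, Ablim1 at 46.5, Hba-a1 at 33.9, Pfkfb3 at 20.9, Oxct1 at 20.6, Matn2 at 20.5, Mef2c at 18.7, Hmcn2 at 12.97, Hdac4 at 10.2, Bhlhe41 at 5.10 and Cyp1b1 at 4.63. The neutrophil and monocyte list summed to 38.5 CPM and the erythroid list to 154 CPM in EF_RD 1. Low in EF_RD 1 were Dhcr7 (83.5 CPM), Blvrb (48.9), the glycolysis list (5235 CPM), the male-biased list (7054), the Kupffer cell list (615) and the lymphocyte list (39.4 CPM).

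In other libraries, EF_RD 3 was high for Gskip (11.7 CPM) and low for Gpcpd1 (17.4), and EF_RD 4 was low for Qtrt2 (3.31). EF_PF 1 was high for Ephx1 (1651 CPM) and Pfkfb3 (2.81), EF_PF 2 for Tomm40l (25.4), EF_PF 3 for lipogenesis (7424 CPM) and Amy2a3 (1.32), and EF_PF 6 for Pdk4 (65.6). EF_PF 5 was high for Atp6v0a1 (87.0 CPM) and bile acid synthesis and transport (13489 CPM), and low for Eno3 (1.30).

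The difference between RD and PF itself differed with LPS for Tkt, by 1.0 on the log2 scale (adjusted p = 0.0287 by edgeR's quasi-likelihood test). By the same test the call was lost without EF_RD 1 (adjusted p = 0.082). With EF_RD 2 and EF_RD 4 also summed, the adjusted p was 0.52.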

How the results depend on the processing

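The count of 105 called genes depended on the processing more than the sign of single genes did. DESeq2 called 227 (161 higher), limma voom 8, a fit without the low-count filter 255, a fit of the 4 groups without LPS 1, and a fit of EF_RD and EF_PF alone 12. RLE scaling (106), total counts (142, with 93.0% higher against 83.8%) and robust shrinkage (100) stayed within 1.5 times. Leaving out 1 replicate gave 1 to 272 genes. The call count was 1 without EF_RD 1, 242, 272 and 255 without EF_RD 2, 3 and 4, and 15, 34, 52, 37 and 39 without EF_PF 1, 2, 3, 5 and 6. Added after the data were seen, an adjustment without the genes moved by EF_RD 1 called 9, summing EF_RD 2 and EF_RD 4 called 203, and leaving out EF_RD 1 as well called 0. The cause was not tested. The interaction count of 1 became 30 with DESeq2, 2 with limma voom, 2 with EF_RD 2 and EF_RD 4 summed, 0 with EF_RD 1 also left out, and 0 to 10 when 1 replicate was left out. With total counts it stayed at 1 but was not Tkt, whose adjusted p was then 0.0755.

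With the replicate block, 13 genes were called, 12 of them among the 105, and 2 in the interaction. Same-numbered libraries did not deviate together (correlations of -0.05, 0.02 and 0.09), so the numbers were not taken as pairing the rats.

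Cyp1a1 was called in 20 of 21 alternatives, with log2 fold changes of -5.02 to -4.38. The 36 genes whose fold moved by 1.5 times or less without EF_RD 1 kept their sign in every alternative that tested them. They were picked on the same libraries, so this is a description only. Calls among these 36 numbered 36 with DESeq2, 8 with limma voom and 12 with the block. They numbered 1 with only the 4 groups without LPS, 5 with EF_RD and EF_PF alone, and 1 without EF_RD 1. With EF_RD 2 and EF_RD 4 summed and EF_RD 1 left out, 0 were called. Leaving out 1 replicate, with the lowest value and a reversed sign without EF_RD 1, gave -0.19 to 4.93 for Eno3, -1.25 to 4.50 for Amy2a3, -0.54 to 8.28 for H19, -0.22 to 6.33 for Krt4 and -0.24 to 1.48 for Hmox1. With EF_RD 2 and EF_RD 4 also summed they reversed for Cyp2a1 (0.019), Eno3 (-0.25), Amy2a3 (-1.25), H19 (-0.52), Krt4 (-0.092) and Hmox1 (-0.31). Depth limits genes under about 1 CPM, such as Macrod2.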
